A study of Arabidopsis thaliana with 10 samples.

Results

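The 4 LNK genes of Arabidopsis thaliana, LNK1 (AT5G64170), LNK2 (AT3G54500), LNK3 (AT3G12320) and LNK4 (AT5G06980), were read as rows of an mRNA-seq table of 33297 rows by their locus codes, and all 4 had a row. They were chosen with the data in view, because LNK2 was low in every mutant, so the levels against the wild type below are a description of that choice and no test was made of them. The profiles came from whole seedlings aged 7 days, harvested 12 hours after lights-on in a cycle of 16 hours of light and 8 hours of darkness. The groups were the Columbia-0 wild type (Col), the T-DNA insertion mutants hda9 (SALK_007123), hos15-2 (SALK_064435, called hos15 here) and pwr (SALK_071811C), and the double mutant that carries both the hda9 and the hos15-2 insertion. Each mutated gene was represented by 1 allele, and no group carried an agent or a transgene according to the labels. HDA9 is a histone deacetylase, and the study's design text describes HOS15 and PWR as its partners in one complex. The labels name 2 libraries for each of the 5 genotypes, but the authors' table has a single FPKM value (sequenced fragments per unit of transcript length and of library size) for a gene in each genotype. No replicate error can be taken from it, the depth behind a value is unknown, and every difference below is between single columns without a replicate check.

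LNK proteins (NIGHT LIGHT-INDUCIBLE AND CLOCK-REGULATED) are plant-specific coactivators of the circadian clock. They have no DNA-binding domain of their own and are brought to promoters by MYB-like transcription factors of the REVEILLE clade, RVE8 and its relatives, with which they switch on afternoon and evening clock genes such as PRR5, TOC1 and ELF4. LNK1 and LNK2 are the longer and better studied pair, and LNK3 and LNK4 are shorter relatives that share the conserved stretches which bind the REVEILLE proteins. LNK transcripts themselves cycle and are highest in the earlier part of the day. All groups were harvested at a single time, so a shift of the daily rhythm and a change of its level cannot be told apart.

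The stretches just upstream of the 4 genes are shown because LNK1, LNK2 and LNK4 were low together in the mutants and LNK3 was hardly detected. Each is the 240 bases before the outermost annotated start, 5′ to 3′ on the strand of the gene, read from the RefSeq genome TAIR10.1, whose nuclear chromosomes keep the sequence of the TAIR10 build named by the submitters. They lie at chr5:25676824-25677063 (minus strand) for LNK1, chr3:20179071-20179310 (minus strand) for LNK2, chr3:3923275-3923514 (plus strand) for LNK3 and chr5:2166880-2167119 (plus strand) for LNK4, and no annotated gene reaches into any of them. Capitals mark the motifs found.
LNK1: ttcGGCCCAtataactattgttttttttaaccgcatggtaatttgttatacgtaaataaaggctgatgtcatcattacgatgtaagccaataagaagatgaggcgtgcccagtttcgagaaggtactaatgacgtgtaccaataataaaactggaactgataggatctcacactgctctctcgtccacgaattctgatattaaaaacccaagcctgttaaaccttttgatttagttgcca
LNK2: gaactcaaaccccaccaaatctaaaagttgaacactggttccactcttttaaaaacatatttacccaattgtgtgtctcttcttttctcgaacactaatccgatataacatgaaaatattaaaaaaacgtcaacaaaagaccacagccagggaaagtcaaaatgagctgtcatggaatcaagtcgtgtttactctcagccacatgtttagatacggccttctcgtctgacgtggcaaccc
LNK3: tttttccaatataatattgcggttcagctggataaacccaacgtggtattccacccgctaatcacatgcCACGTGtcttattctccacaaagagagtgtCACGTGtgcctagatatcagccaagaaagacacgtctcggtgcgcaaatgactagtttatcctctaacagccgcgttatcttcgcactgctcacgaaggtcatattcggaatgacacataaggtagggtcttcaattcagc
LNK4: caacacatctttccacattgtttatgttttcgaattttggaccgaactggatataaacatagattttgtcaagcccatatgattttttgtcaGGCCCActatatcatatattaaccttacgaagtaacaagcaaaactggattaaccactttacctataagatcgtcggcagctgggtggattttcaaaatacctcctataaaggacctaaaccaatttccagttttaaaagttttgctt

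On both strands, 5 promoter motifs were searched: the evening element AAAATATCT, the CCA1-binding site AAAAATCT, the G-box CACGTG, the I-box GATAAG and the site II element GGCCCA. None of these 5 is contained in another. LNK2, the member with the lowest log2 fold changes, held none of them in this window. LNK3 held the G-box at 2 places, starting 171 and 141 bases before the start. LNK1 and LNK4 each held 1 site II element, starting 237 and 148 bases before the start. Of the upstream windows of 27443 protein-coding genes, 6.33% held a G-box, 13.5% a site II element, 11.8% an I-box, 6.41% a CCA1-binding site and 2.29% an evening element. The last 3 occurred in none of the 4 LNK windows. A match is a string of letters and not a bound site, and sites farther upstream or inside the genes were not searched.

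The mutated genes were low where the labels place them. HDA9 had 7.79 FPKM in Col, while hda9 had 1.70 and the double mutant 1.76, against 10.7 for hos15 and 10.9 for pwr. PWR (AT3G52250) had 8.38 FPKM in Col and 2.18 in pwr, and 9.76 to 12.1 in the other mutants. HOS15 had 16.2 FPKM in Col, while hos15 had 2.16 and the double mutant 1.89, and it was also low in hda9 (4.37) and pwr (3.17). Its transcript is 57.9% purine (A and G). Its log2 fold change against Col was -1.68 in hda9 and -2.04 in pwr. With the sequence trend described below removed, both were -0.37, beside -1.36 in hos15 and -1.46 in the double mutant. Markers of leaf (RBCS1A, CAB1), root (COBL9, EXPA7), xylem (CESA7), guard cell (FAMA) and shoot apex (STM) were present in all columns, and those of flower (AP3) and seed (CRC, annotated as CRU3) were at 0 to 0.181 FPKM. Some differed alongside the LNK genes: FAMA had 8.51 FPKM in Col against 3.20 to 4.78 over the mutants, and STM had 2.47 in Col against 4.78 to 5.49. On the log2 scale FAMA lay at -0.72 to -1.18, and at -0.41 to -0.63 with that trend removed. Quantile normalization left FAMA below Col but within 2-fold in every mutant. STM lay at 0.74 to 0.90, and at 0.61 to 0.82 with the trend removed. CAB1 was above Col in every mutant, at differences of log2(FPKM + 1) of 0.44 to 1.04, and RBCS1A at 0.35 to 0.61. With the sequence trend described below removed these were 0.10 to 0.48 and 0.13 to 0.29, and after quantile normalization neither lay above Col in any of the 4 mutants. The part of cell makeup in the LNK values was not tested, and in whole seedlings fewer cells of a type and less RNA per cell cannot be told apart.

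LNK2 was the most abundant member in every column. It had 18.0 FPKM in Col, while hda9 had 7.50, hos15 6.56, pwr 5.43 and the double mutant 4.83. Col was thus highest and the double mutant lowest, and the 4 mutants lay within 1.55 times of one another. LNK1 had 9.24 FPKM in Col, while hda9 had 4.11, hos15 4.75, pwr 3.02 and the double mutant 3.79. Here too Col was highest, as it was in LNK4 and in 41.2% of the rows compared, while it was lowest in 31.9% of them and in no LNK gene; in LNK1 pwr was lowest and hos15 the nearest to Col. FPKM is per length of transcript, and by this unit LNK2 was 1.94 times LNK1 in Col. How far transcript sequence or overlapping genes enter such a ratio between genes was not tested.

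LNK4 was weakly expressed, with 3.34 FPKM in Col, while hda9 had 1.49, hos15 1.67, pwr 1.35 and the double mutant 1.40. The order of the mutants resembled that of LNK1, with pwr lowest and hos15 highest, but they spanned 1.24 times in all. LNK3 had 0.624 FPKM in Col, while hda9 had 0.639, hos15 0.391, pwr 0.252 and the double mutant 0.108. It did not reach 1 FPKM in any column and is described by its levels alone. Of the 18912 rows compared, those with at least 1 FPKM in at least 2 of the 5 columns, LNK2 in Col stood above 62.8% and LNK1 above 42.1%, while LNK4 stood above 16.7%.

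**Figure D1:**
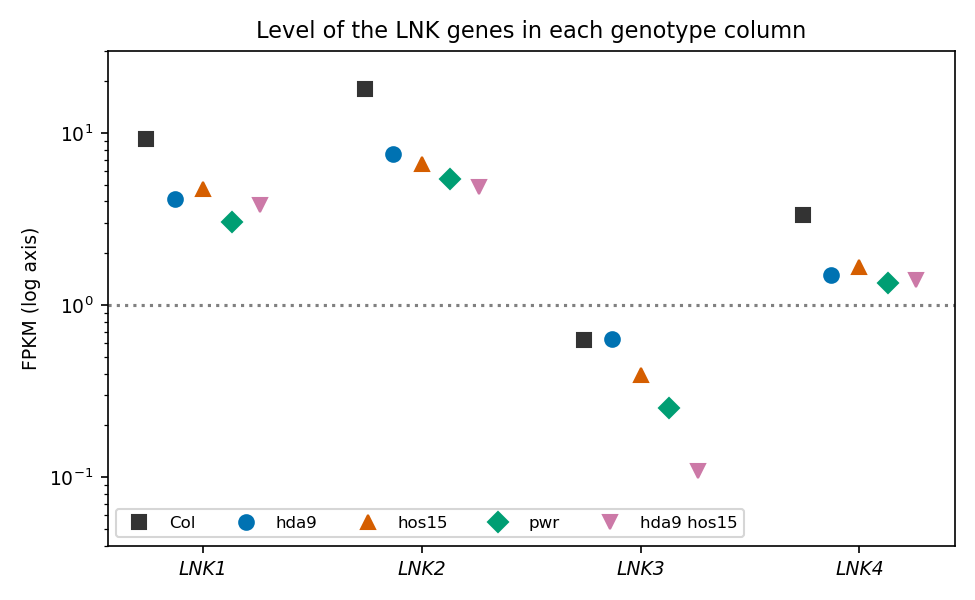
The plot gives the FPKM of each LNK gene (log axis) in the 5 genotype columns, 1 point per column, with a dotted line at 1 FPKM. For LNK1, LNK2 and LNK4 the Col point lies above all 4 mutant points, and for LNK3 all points lie below 1 FPKM.

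Summed over the family, LNK transcripts had 31.2 FPKM in Col, while hda9 had 13.7, hos15 13.4, pwr 10.1 and the double mutant 10.1. The mutant columns therefore held 32.2% to 44.1% of the Col sum. LNK2 made up 57.6% of the sum in Col, while its share was 54.6% for hda9, 49.0% for hos15, 54.0% for pwr and 47.7% for the double mutant. Its share was lowest in the 2 columns that carry the hos15 insertion, where the ratio of LNK1 to LNK2 was 0.725 and 0.785, against 0.514 in Col, 0.548 in hda9 and 0.556 in pwr. With 1 column per genotype the scatter of such a ratio is unknown. The ratio also moves with the sequence trend described below, which was larger for LNK1 than for LNK2 in every mutant. With that trend removed, the log2 values of LNK1 and LNK2 against Col were -0.57 and -1.03 in hda9 and -0.75 and -1.37 in pwr. They were -0.56 and -1.27 in hos15 and -0.66 and -1.56 in the double mutant. LNK2 then lay below LNK1 in hda9 and pwr too, but by less than in the 2 columns that carry the hos15 insertion.

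The comparison of each mutant with Col asked which transcripts differ when a member of the HDA9 complex is lost. A gene is called lower or higher here when log2(FPKM + 1) differs by at least 1 (2-fold on that scale), a rule of size and not a test. LNK2 differed from Col by -1.16 for hda9, -1.33 for hos15, -1.56 for pwr and -1.70 for the double mutant on the log2 scale, and was called lower in all 4, as were 1.89% of all rows. Another 0.233% of rows were called higher in all 4, and no LNK gene was among them. The 4 comparisons share the Col column, and a high Col value alone would put a gene low in each. For LNK1 the log2 fold change was -1.0 for hda9, just past the rule, -0.83 for hos15, its single value inside the rule, -1.35 for pwr and -1.10 for the double mutant. LNK4 stayed within the rule in all 4, at -0.81, -0.70, -0.89 and -0.85 in the same order.

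Of the 3 LNK genes compared, 2 were called lower in hda9, where 4.49% of all rows were, and 1 in hos15, where 2.48% were. For pwr 2 were called lower, beside 7.55% of all rows, and for the double mutant 2, beside 3.91%. None was called higher in hda9, hos15, pwr or the double mutant, where 1.99%, 1.23%, 1.94% and 1.49% of all rows were. The members were chosen on these comparisons, so nothing is read from their count. The median log2 fold change of the 18912 rows lay between -0.09 and -0.01 over the 4 comparisons. Fewer rows lay below LNK2 in the double mutant (112 rows, 0.592%) and in hos15 (203 rows, 1.07%) than in pwr (523 rows, 2.77%) and hda9 (590 rows, 3.12%).

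**Figure D2:**
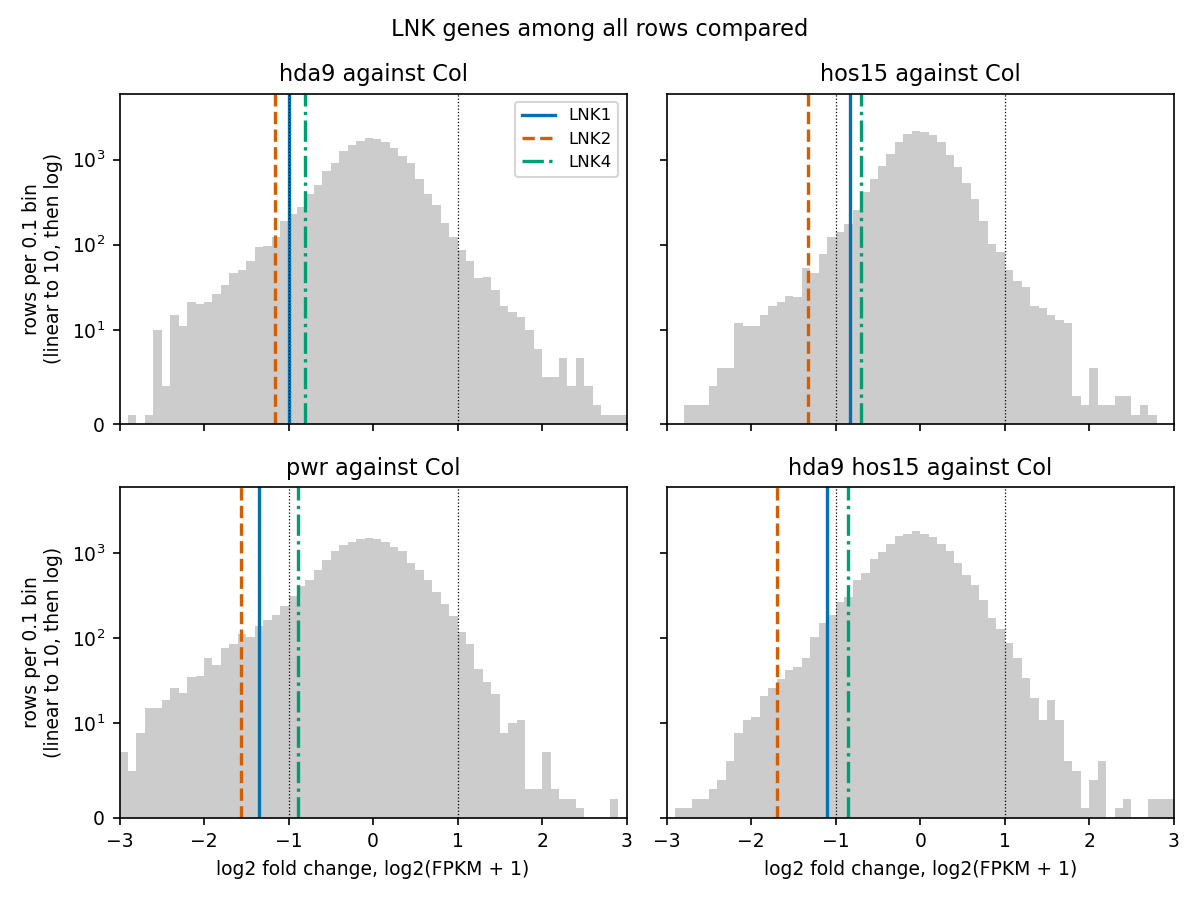
Histograms of the log2 fold change against Col over the 18912 rows compared, 1 panel per mutant, on a count axis that is linear to 10 and logarithmic above, drawn from -3 to 3, with vertical lines at LNK1, LNK2 and LNK4 and dotted lines at the 2-fold rule. All 3 lie on the lower side in every panel, with LNK2 the lowest at -1.16 to -1.70.

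The added 1 in log2(FPKM + 1) understates the change of weakly expressed genes, which bears on LNK4. As a plain share of the Col value, LNK4 stood at 44.4% for hda9, 50.1% for hos15, 40.3% for pwr and 42.0% for the double mutant. LNK1 stood at 44.5%, 51.5%, 32.7% and 41.0% in the same order. On this scale both genes had closely similar values in hda9, hos15 and the double mutant. LNK2 stood at 41.8%, 36.5%, 30.2% and 26.9%, so it was the lowest of the 3 in every mutant. With a pseudocount of 0.1 in place of 1, LNK4 was past 2-fold in hda9, pwr and the double mutant, at log2 fold changes of -1.12, -1.25 and -1.20.

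The log2 fold changes in this table varied across genes with transcript composition, which is given beside these values. Over 18079 protein-coding genes the log2 fold change was lower the larger the share of purines (A and G) in the transcript. Spearman's rho across genes was -0.47 for hda9, -0.42 for hos15, -0.53 for pwr and -0.46 for the double mutant. These points share their columns and are not replicates. The LNK2 transcript is 51.0% purine, near the median of 50.6%, and 55.3% of genes had a lower share. LNK4 (51.1%) and LNK3 (50.3%) lay in the same range, and LNK1 was richer in purines, at 53.2%, with 82.5% of genes below it. The smooth trend with purine content, length and GC content gave LNK2 values of only -0.06 to -0.19, and LNK4 -0.04 to -0.16. For LNK1 the trend gave -0.43 for hda9, -0.27 for hos15, -0.60 for pwr and -0.43 for the double mutant.

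With that trend removed, LNK2 stood at log2 values of -1.03 for hda9, -1.27 for hos15, -1.37 for pwr and -1.56 for the double mutant, past 2-fold in all 4. This was so for 60 of the 18079 genes (0.332%). LNK4 lay at -0.73, -0.66, -0.73 and -0.72. LNK1 came to -0.57, -0.56, -0.75 and -0.66, so that LNK1 and LNK4 lay close together and neither was past 2-fold in any mutant. The order of the mutants in LNK2, from hda9 nearest to Col through hos15 and pwr to the double mutant, was the same before and after this step.

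**Figure D3:**
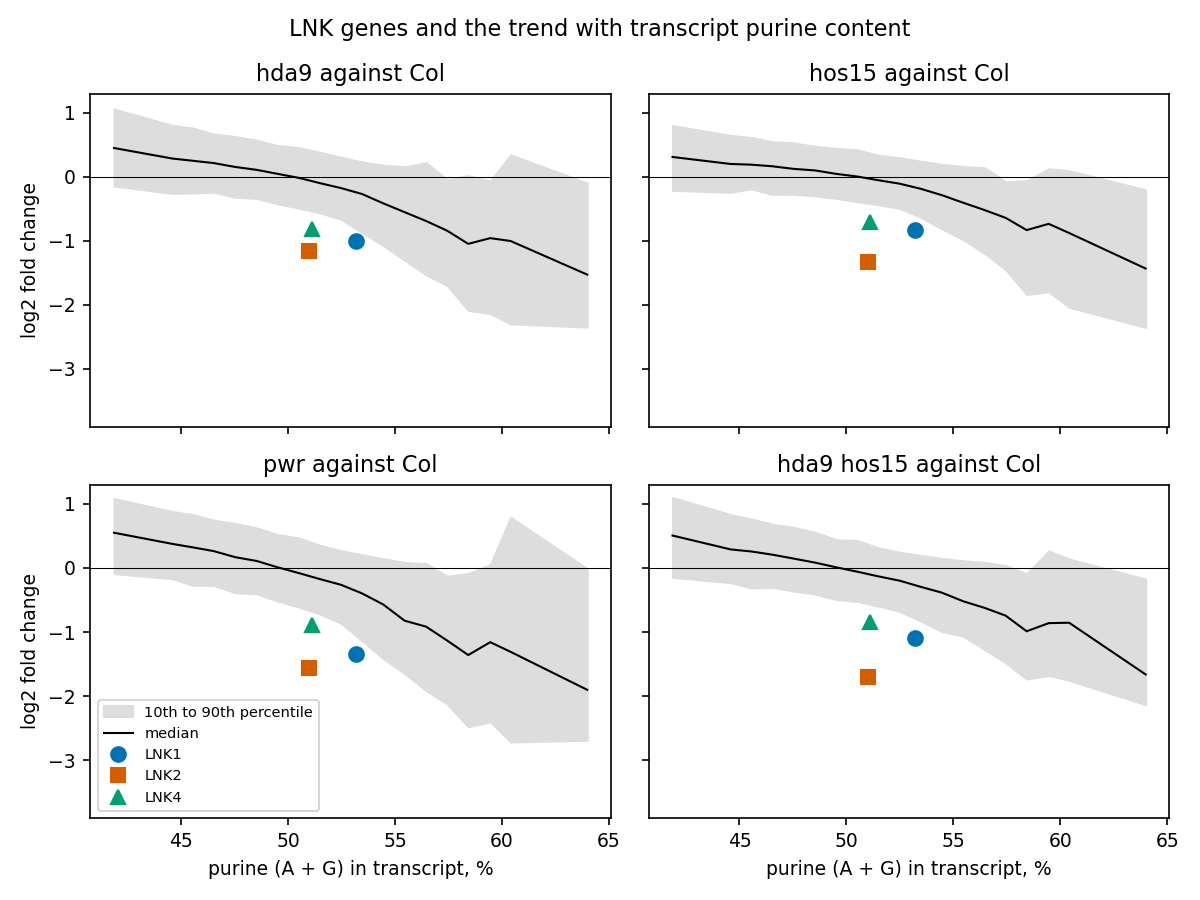
Log2 fold change against Col by the purine percentage of the transcript, 1 panel per mutant; the line is the median and the band the 10th to 90th percentile of protein-coding genes in bins of purine percentage. LNK2 (51.0% purine), LNK4 (51.1%) and LNK1 (53.2%) lie below the band in every panel.

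The mutants were also compared with one another, because the 3 proteins are described as members of one complex. None of the 3 LNK genes compared differed 2-fold between any 2 mutant columns. In hda9 against hos15, 0.381% of all rows were 2-fold lower and 0.360% higher, and against pwr 0.381% and 0.545%. In hos15 against pwr the shares were 0.344% and 0.857%. In the double mutant 1.49% of rows were lower and 0.360% higher than in hda9, 0.994% and 0.296% than in hos15, and 0.598% and 0.598% than in pwr. LNK2 in the double mutant against hda9 was at -0.54 on the log2 scale, with 4.60% of rows lower, and LNK1 in hos15 against pwr was at 0.52, with 91.3% of rows lower. The latter was 0.18 with the sequence trend removed, and the former -0.52. Against hos15 LNK2 in the double mutant was at -0.37 (8.07% of rows lower), and against pwr at -0.14 (19.1%). For LNK1 the double mutant stood at -0.09 against hda9, -0.26 against hos15 and 0.25 against pwr. LNK4 differed by 0.19 or less between any 2 mutants. The standard deviation of log2 differences over all rows was 0.32 to 0.36 between mutant columns and 0.46 to 0.63 between a mutant and Col.

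If the log2 changes of hda9 and hos15 added up, LNK2 would have been at -2.48 in the double mutant, LNK1 at -1.83 and LNK4 at -1.51. The double mutant lay above these sums by 0.78, 0.74 and 0.65. Each term of such a sum takes Col as its base, so a Col value that is off by chance enters it more than once.

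The other clock genes were taken from lists of 25 genes written down for this comparison with earlier results of the same data known, of which 20 were compared. In hda9 2 of these 20 were called lower, and 2 likewise for pwr, 1 for the double mutant and 0 for hos15, while none was called higher. Over all rows 4.49%, 7.55%, 3.91% and 2.48% were called lower in the same order, and 1.23% to 1.99% higher. Nothing is read from counts this small. Their median log2 fold change was 0.01 for hda9, 0.10 for hos15, -0.07 for pwr and -0.09 for the double mutant. In hos15 and the double mutant no other clock gene lay below LNK2. In hda9 and pwr 2 did, PRR7 and PRR3. LNK2 was chosen for being low in every mutant, so its place among these genes describes that choice.

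Among the DNA-binding partners, the 5 genes of the RVE8 list had 3 members compared, and none differed 2-fold from Col. RVE8 itself, the MYB-like factor through which LNK proteins reach promoters, was listed between 0.426 and 0.780 FPKM and was not compared. Its close relative RVE4 (annotated as LCL1) had 28.5 FPKM in Col, while hda9 had 25.0, hos15 22.2, pwr 22.6 and the double mutant 21.4, log2 fold changes of -0.18 to -0.40. AT4G01280, annotated only as a homeodomain-like protein, had 8.09 FPKM in Col against 4.14 to 5.14 over the mutants, and AT5G52660, annotated in the same way, had 6.47 in Col and 7.47 to 9.79 over the mutants. On the log2 scale the 3 partners lay on both sides of Col, and LNK1, LNK2 and LNK4 each lay below all 3 of them in each of the 4 mutants.

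Of the 5 other morning MYB genes, the core morning repressors CCA1 (0.0626 to 0.828 FPKM) and LHY (0.0389 to 0.196 FPKM) were too low at this hour to be compared. Of the 3 that were compared, none differed 2-fold from Col. RVE7 (annotated as EPR1), a MYB-like factor induced by phytochrome, had 3.62 FPKM in Col against 1.58 to 2.21 over the mutants. RVE1, which promotes auxin synthesis by day, had 1.91 FPKM in Col against 1.14 to 1.91 over the mutants. RVE2 had 59.2 FPKM in Col against 53.3 to 63.6 over the mutants. RVE7 was the one of these whose mutant columns all lay below Col by more than 0.5 on the log2 scale.

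The PRR genes encode repressors that follow one another through the day. Of the 5 listed, 4 were compared, and hda9 and pwr each had 2 called lower, the double mutant 1 and hos15 0, with 0 called higher. Of all rows 4.49% (hda9), 7.55% (pwr), 3.91% (the double mutant) and 2.48% (hos15) were called lower. Quantile normalization put 1 PRR gene past 2-fold lower in hos15. PRR7 had 43.5 FPKM in Col, while hda9 had 17.8, hos15 22.9, pwr 13.7 and the double mutant 15.3. In the same order of columns, PRR3 had 27.6, 10.8, 15.2, 7.80 and 13.7 FPKM. For both, as for LNK1, pwr was lowest and hos15 the highest of the mutants. Their transcripts are 53.9% and 53.2% purine, and with the trend removed they lay at -0.51 to -0.89 and -0.44 to -1.01. PRR5, a gene that RVE8 and LNK proteins are known to activate, had 36.4 FPKM in Col against 21.9 to 26.7 over the mutants, within 2-fold in all of them.

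The evening genes lay mostly above Col, within the rule. None of the 8 compared was called in hda9, hos15, pwr or the double mutant. Over all rows 2.48% to 7.55% were called lower and 1.23% to 1.99% higher. Of the evening genes 8 lay above Col in hos15 and 7 in each of the other 3 mutants. The share of all rows above Col was not taken. The medians of the evening genes were 0.28 (hda9), 0.31 (hos15), 0.38 (pwr) and 0.21 (the double mutant), beside -0.09 to -0.01 for all rows. Quantile normalization turned some of these small differences, leaving 6, 7, 6 and 5 above Col, and put 1 gene past 2-fold higher in hos15 and in pwr. BOA, a relative of the evening complex protein LUX, had 7.45 FPKM in Col against 12.4 to 15.1 over the mutants. ZTL and LKP2, blue-light receptors that mark clock proteins for breakdown, stood at 15.5 and 5.67 FPKM in Col, and at 21.8 to 25.9 and 8.55 to 9.92 over the mutants. ELF4, which RVE8 and LNK proteins activate, had 185 FPKM in Col, while hda9 had 209, hos15 224, pwr 198 and the double mutant 213. TOC1, another such target, listed here with the PRR genes, stood at 88.2, 89.4, 94.6, 88.4 and 76.5. PRR5, the other such target named above, was below Col in every mutant, at log2 fold changes of -0.43 to -0.71. TOC1, ELF4 and PRR5 were all within 2-fold of Col in the mutant columns, which held 26.9% to 51.5% of the Col level of LNK1 and LNK2. Whether the targets follow the LNK levels was not tested.

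COR27, which interacts with the clock's RVE8 module, had 87.6 FPKM in Col against 91.9 to 99.9 over the mutants, and AT4G33980, listed with it, had 38.4 in Col and 29.3 to 36.3 over the mutants. Of 6 anthocyanin genes, an output that RVE8 and LNK proteins are known to tune, 2 were called lower in pwr, where 7.55% of all rows were, and 0 in hda9, hos15 and the double mutant, and none was called higher. In pwr 1 of the calls was left with median-ratio scaling and 0 with quantile normalization. DFR, an enzyme of anthocyanin synthesis, had 3.12 FPKM in Col, while hda9 had 1.17, hos15 1.18, pwr 0.763 and the double mutant 1.79. LDOX, the next enzyme, stood at 3.29, 1.46, 1.48, 1.11 and 2.98, and with the sequence trend removed its log2 value in pwr was -0.43. UF3GT, a sugar transferase of the same pathway, ran from 1.11 FPKM (hos15) to 2.58 (the double mutant), with Col at 1.17. In DFR and LDOX the double mutant was the nearest to Col, unlike in LNK2, where it was the farthest.

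**Figure D4:**
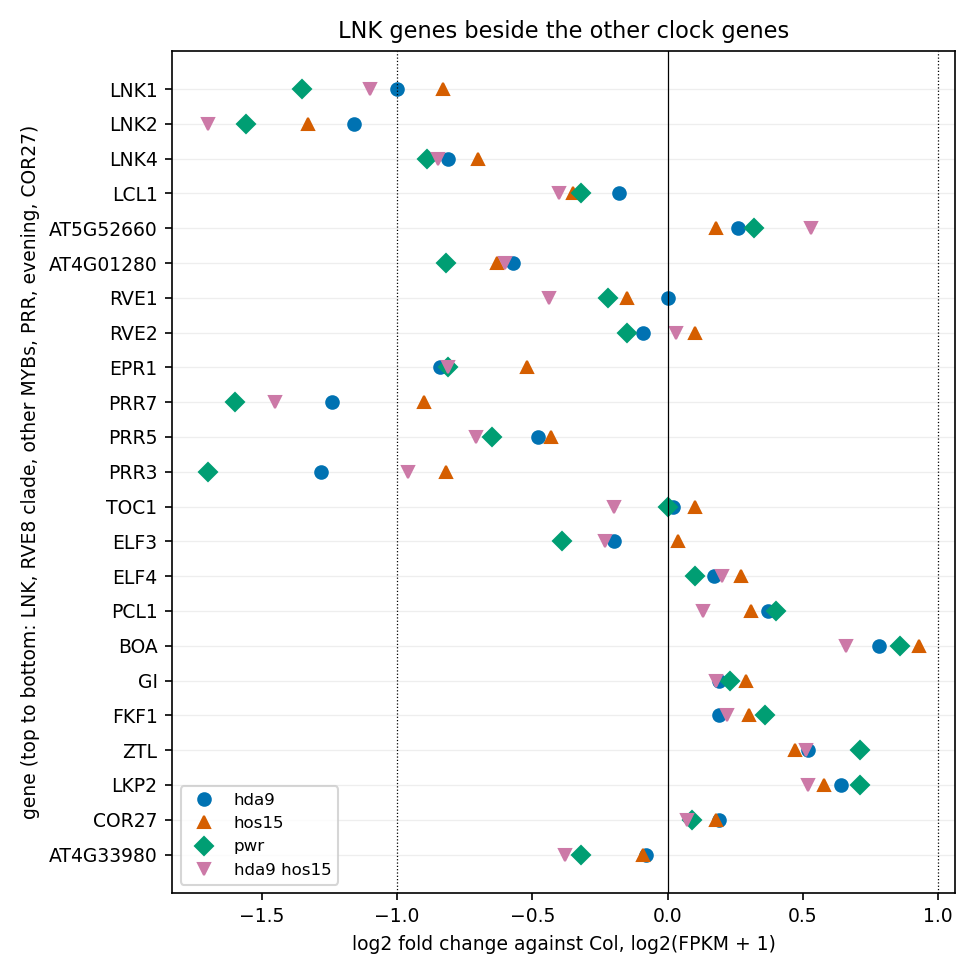
Log2 fold change against Col of LNK1, LNK2, LNK4 and the 20 other clock genes compared, 1 point per mutant, with dotted lines at the 2-fold rule. LNK1, LNK2, PRR7 and PRR3 reach past the 2-fold line on the lower side, and BOA, LKP2 and ZTL lie on the higher side.

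By the root mean square difference of the 4 log2 fold changes, the 5 protein-coding genes of 18168 nearest to LNK2 were AT5G42250, AT1G23120, JAC1, FER1 and SIGE. AT5G42250, annotated as a zinc-binding alcohol dehydrogenase, was nearest at 0.118, with 21.4 FPKM in Col, while hda9 had 9.69, hos15 8.50, pwr 7.41 and the double mutant 6.62. The order of its 5 columns was that of LNK2. AT1G23120, a polyketide cyclase-like protein gene, followed at 0.128, with 7.78 FPKM in Col against 1.77 to 3.06 over the mutants. JAC1, needed for chloroplasts to gather in weak light, was at 0.150, FER1, a chloroplast ferritin gene, at 0.168 and SIGE, a sigma factor of plastid transcription, at 0.192. FER1 had 176 FPKM in Col against 63.7 to 75.6 over the mutants. PRR7 came 17th by this measure, at 0.254, LNK1 304th at 0.413 and LNK4 987th at 0.650. With the sequence trend removed, AT1G23120 (51.9% purine) lay at -1.14 to -1.57 and FER1 (50.3%) at -1.25 to -1.43, past 2-fold in all 4 mutants like LNK2. AT5G42250 (53.5%) then lay at -0.78 to -1.25, JAC1 (54.2%) at -0.76 to -1.06 and SIGE (53.9%) at -0.49 to -0.89, each within 2-fold in at least 1 mutant. Likeness over 4 values that share Col is a description of these columns.

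Because the authors' counting is not stated to have used the strand, the genes around each member were read as well. LNK2 shares 93 bases with RPB5E on the opposite strand, and the row of RPB5E was listed at 0.250 FPKM in Col against 0.0468 to 0.178 over the mutants. A long non-coding RNA gene, AT3G08405, lies inside LNK2 on the opposite strand over 266 bases and has no row of its own in the table, so its reads cannot be told apart from those of LNK2 if strand was not used. The next gene upstream of LNK2, AT3G54510, stood below 0.2 FPKM in all columns. LNK1 shares 245 bases with AT5G64160 on the opposite strand, which had 20.8 FPKM in Col against 14.9 to 18.3 over the mutants, log2 fold changes of -0.17 to -0.46. The gene that starts 248 bases upstream of LNK1 on the other strand, AT5G64180, had 28.7 FPKM in Col against 23.0 to 25.3 over the mutants. LNK1 lay lower against Col than both, while RPB5E and AT3G54510 beside LNK2 were too low to compare, and AT3G08400, the next gene downstream of LNK2, has no row.

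LNK4 shares 13 bases with AT5G06990 on the same strand, which had 1.58 FPKM in Col against 1.12 to 2.02 over the mutants, and lies 608 bases from AT5G06970, which had 14.0 in Col and 10.2 to 10.9 over the mutants. LNK3 shares 5 bases at its end with AT3G12340, an FKBP-like isomerase gene on the opposite strand. AT3G12340 had 5.42 FPKM in Col, while hda9 had 2.43, hos15 2.41, pwr 1.10 and the double mutant 2.66, and was called lower in pwr. Its transcript is 55.9% purine, and with the trend removed it lay at -0.10 to -0.57. BUG22, on the other side of LNK3, had 11.3 FPKM in Col against 10.3 to 12.3 over the mutants.

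**Figure D5:**
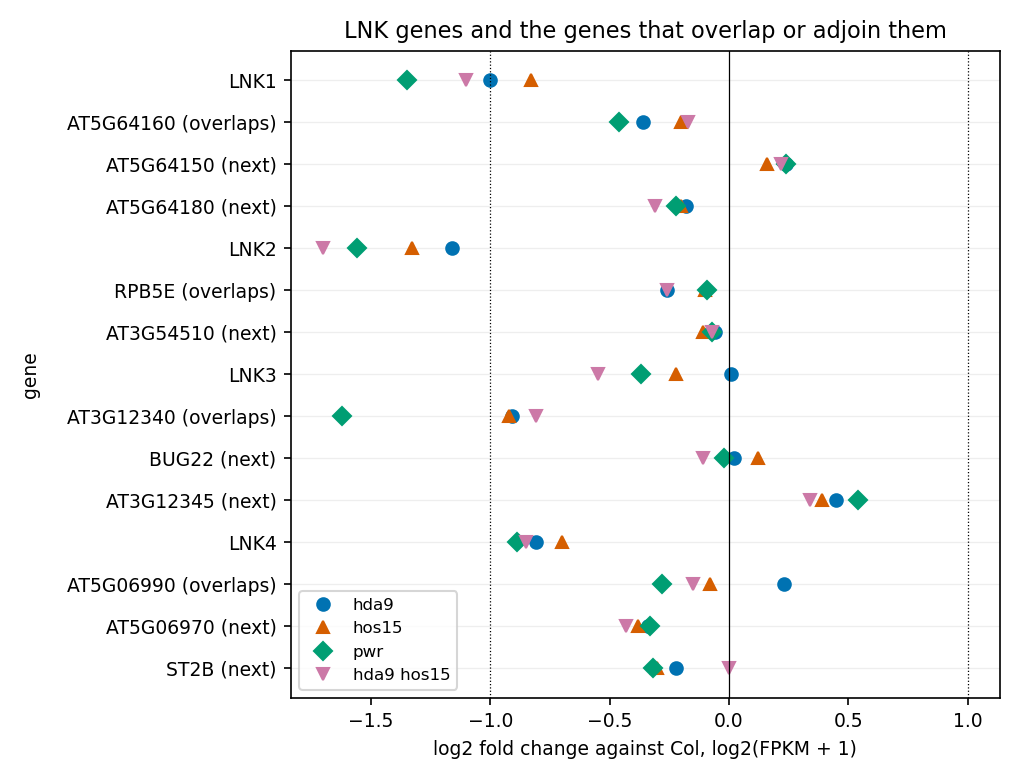
Log2 fold change against Col of each LNK gene and of the genes that overlap it or lie next to it, 1 point per mutant, with dotted lines at the 2-fold rule. LNK1 and LNK4 lie lower than their neighbours, LNK2 lies beside 2 genes that are below 1 FPKM, and AT3G12340 lies lower than LNK3, which is below 1 FPKM in all columns.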

How the data were processed

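The labels' protocols describe stranded mRNA libraries, 2 for each of 5 genotypes. FPKM is the only unit in the deposited table, with a single value for a gene in each genotype, and the authors computed it. TopHat2, Cufflinks, Cuffdiff and the TAIR10 build are named in the submitters' processing notes; their versions and settings, and how the libraries were combined, are not given there. The mutant columns name their 2 libraries, and the wild-type column was taken as Col. FPKM sums ran from 955700 in Col to 1326086 in pwr. No whole reads could be recovered, so depth and counting intervals are unknown.

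Values were compared as log2(FPKM + 1) for rows where 2 or more columns reached 1 FPKM, with Python 3.11.15, pandas 2.3.3 and numpy 2.4.6. Tests planned for single libraries could not be made. The sequence trend was an additive cubic spline (5 knots per term) of purine percentage, highest purine percentage in 100 nt, log2 length and GC percentage of the longest annotated transcript of at least 300 nt (RefSeq, TAIR10.1, joined by locus code for 32350 of 33297 rows). Procedures were tested on simulated data. The changes planted there in single genes were larger than those of LNK1, LNK2 and LNK4, so calls near 2-fold were not checked. The members, lists, trend and alternatives were chosen with earlier results of these data known. Named genes were the 4 members, the mutated genes, up to 3 per list with the largest change, overlapping and adjoining genes, and the 5 most like LNK2; TOC1, ELF4, CCA1, LHY, RVE8 and the neighbour AT3G12340 are given for their role or value.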

Additional observations from a re-analysis of the deposited data

How the results depend on the processing

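No paired analysis was possible because the table holds 1 value per genotype, and for the same reason no replicate could be left out. LNK2 kept its direction and stayed past 2-fold in all 4 mutants under a pseudocount of 0.1, median-ratio scaling, quantile normalization and sequence adjustment, at log2 values of -1.25 to -1.03 in hda9, -1.44 to -1.27 in hos15, -1.71 to -1.37 in pwr and -1.87 to -1.56 in the double mutant. The scalings moved the median of all rows by up to 0.14. The number of LNK genes called lower went from 2 to 1 in hda9 with median-ratio scaling, quantile normalization or sequence adjustment, from 2 to 1 in pwr with sequence adjustment, and from 2 to 1 in the double mutant with quantile normalization or sequence adjustment; LNK1 was the gene lost each time, and the cause was not tested. A 1.5-fold rule called 3 in all 4 mutants, in place of 1 in hos15 and 2 in the others, and a pseudocount of 0.1 called 3 in hda9, pwr and the double mutant. A 3-fold rule called 0 in hda9, hos15 and pwr and 1 in the double mutant. No LNK fold change called against Col changed sign. Only such called values were checked for sign, while the 188 recomputed values also include counts, shares and differences within 2-fold. Some small differences between mutants did change sign. LNK4 in hda9 against pwr went from 0.08 to -0.01 with sequence adjustment, and in the double mutant against pwr from 0.03 to -0.06 with quantile normalization. Ranking by Pearson's r of log2(FPKM + 1) over the 5 columns, among the 2250 genes with a range of at least 1 in place of all 18168, shared 1 of the first 5 genes with the ranking used, AT5G42250, at r = 0.9997. Depth is unknown for every member, so what it limits cannot be given; LNK3 was below 1 FPKM throughout.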
